A study of Mus musculus with 8 samples.

Results

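The ETS family is a group of transcription factors that share a winged-helix DNA-binding domain and recognise a GGAA core, often close to binding sites of the AP-1 factors. Ets1 and Ets2 are the founding members and are activated by Ras-MAPK signalling, Etv1, Etv4 and Etv5 form the PEA3 group downstream of receptor tyrosine kinases, Elk3 is a ternary complex factor that partners the serum response factor, Elf3, Elf5 and Ehf are epithelium-specific members, and Fli1 is best known in blood and endothelial cells. The 10 genes described here were *Ets1*, *Ets2*, *Etv1*, *Etv4*, *Etv5*, *Elk3*, *Elf3*, *Elf5*, *Ehf* and *Fli1*, of 21938 protein-coding genes, and their data were the ATAC-seq peaks that overlapped each gene or the 20 kb upstream of it. ATAC-seq marks open chromatin with a transposase, and a peak is a stretch called by the authors as enriched over the local background of its own library. Peaks of all libraries that overlapped were merged into 69399 regions, of which 47 lay in the windows of these genes. The number of reads behind each list was not used here, and a region that was not called may still be accessible below the calling threshold.

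The cells were mouse cutaneous squamous cell carcinoma (SCC) cells with Ha-Ras as the driver, from chemically induced tumours of K14CreER FAKflox/flox FVB mice, in which the inducible Cre is driven by the keratin 14 promoter. Deletion of *Ptk2*, the gene of focal adhesion kinase (FAK), was induced in culture with hydroxytamoxifen and is shared by all 4 lines. FAK-/- cells are the control line without FAK, and the same FAK-/- clone was transduced with wild-type FAK (FAK-WT), with FAK deficient in nuclear localization (FAK-nls, R177A, R178A, R190A, R191A, R216A and R218A) or with kinase-dead FAK (FAK-kd, K454R), so that each line derives from 1 clone. The paper states that cells expressing wild-type or mutant FAK were selected with hygromycin. Each line had 2 libraries, which the study calls biological replicates.

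The lists held 24383 to 53703 peaks on chromosomes 1 to 19, X and Y. The FAK-nls lists were the shortest, with 24383 and 24959 peaks, and the list of FAK-WT replicate 1 was the longest, so the main counts of called regions are given for all peaks and again for equal lists, which keep the 24383 peaks with the highest -log10 p per library. The *Ptk2* promoter was called in all 8 libraries, and this does not check the deletion. The paper describes the SCC cells as arising from skin keratinocytes, and 8 keratinocyte marker promoters were looked up. Only *Itga6* was called in all 8 libraries, *Itgb4* was called in 3 and *Krt14* in 1, and those of *Krt5*, *Trp63*, *Cdh1*, *Perp* and *Sfn* in none, whereas 3 of 4 fibroblast markers (*Pdgfra*, *Pdgfrb* and *Col1a1*, not *Lum*) were called in all 8. In the equal lists 1 of the 8 keratinocyte and 1 of the 4 fibroblast promoters were called in all 8 libraries. No promoter of 6 blood cell and 4 endothelial markers was called in all 8, and those of *Csf1r*, *Cdh5* and *Kdr* were called in 3, 2 and 1 libraries. Promoters of 5 of the 8 keratinocyte markers were thus called in no library. Of all protein-coding genes, 42.6% had a promoter called in no library and 40.2% in all 8, or 31.1% in the equal lists. The part of these marker calls in the results below was not tested.

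To show what the accessible stretches look like, 3 promoters and 7 further stretches are printed below from the RefSeq sequence of GRCm38 (mm10), in the direction of the gene. Capitals mark exact matches on either strand to an ETS motif (AGGAAGT or CGGAAGT) or an AP-1 motif (TGACTCA or TGAGTCA). The promoters are the 200 bases before the protein-coding start. They show a promoter of high rank in every library (*Etv5*, chr16:22439720-22439919, minus strand), the promoter of a founding member (*Ets2*, chr16:95701875-95702074, plus strand) and a promoter called in only some libraries (*Elf5*, chr2:103411488-103411687, plus strand). The sequences were chosen after the values were seen.
Etv5 promoter: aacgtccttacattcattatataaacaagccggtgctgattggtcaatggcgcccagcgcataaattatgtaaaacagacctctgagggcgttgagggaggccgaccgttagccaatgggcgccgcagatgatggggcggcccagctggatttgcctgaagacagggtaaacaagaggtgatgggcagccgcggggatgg
Ets2 promoter: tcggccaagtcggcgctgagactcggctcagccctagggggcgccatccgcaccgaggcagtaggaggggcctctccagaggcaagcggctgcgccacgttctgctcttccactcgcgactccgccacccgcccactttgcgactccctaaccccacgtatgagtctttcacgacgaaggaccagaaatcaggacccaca
Elf5 promoter: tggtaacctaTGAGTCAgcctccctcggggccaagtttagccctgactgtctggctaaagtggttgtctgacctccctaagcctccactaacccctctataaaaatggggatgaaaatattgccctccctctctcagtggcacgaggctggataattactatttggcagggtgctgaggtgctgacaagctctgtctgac
Of these 3, only *Elf5* held a match, to AP-1. Over the same 200 bases of 21853 protein-coding genes, 3.12% held an AP-1 match, 11.2% an ETS match and 1.89% a match to the CRE motif TGACGTCA.

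The other stretches come from regions away from the first start that the results below describe in detail. All lie in introns as annotated. They are *Ets1* -26.5 kb (chr9:32669555-32669674), *Ets1* +34.8 kb (chr9:32730793-32730912), *Ets1* +53.9 kb (chr9:32749622-32749771), *Ets2* +6.6 kb (chr16:95708369-95708518), *Etv1* +64.6 kb (chr12:38843954-38844103) and *Elf5* +34.3 kb (chr2:103445882-103446031) on the plus strand, and *Elk3* +23.0 kb (chr10:93287796-93287945) on the minus strand. Regions are named by the distance of their centre from the protein-coding start of the gene.
Ets1 -26.5 kb: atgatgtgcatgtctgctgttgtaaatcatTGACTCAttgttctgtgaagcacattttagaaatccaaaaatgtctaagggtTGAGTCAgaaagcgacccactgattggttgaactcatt
Ets1 +34.8 kb: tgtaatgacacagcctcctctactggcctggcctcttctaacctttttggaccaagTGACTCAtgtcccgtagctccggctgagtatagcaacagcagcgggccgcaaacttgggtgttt
Ets1 +53.9 kb: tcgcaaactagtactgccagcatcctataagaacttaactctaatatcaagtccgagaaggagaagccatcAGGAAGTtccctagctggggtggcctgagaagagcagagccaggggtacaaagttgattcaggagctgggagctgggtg
Ets2 +6.6 kb: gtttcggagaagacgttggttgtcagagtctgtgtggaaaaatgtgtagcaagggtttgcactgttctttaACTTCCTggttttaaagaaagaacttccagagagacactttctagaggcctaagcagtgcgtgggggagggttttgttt
Etv1 +64.6 kb: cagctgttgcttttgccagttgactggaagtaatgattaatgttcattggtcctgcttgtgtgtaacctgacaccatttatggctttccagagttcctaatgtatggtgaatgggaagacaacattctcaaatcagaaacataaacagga
Elk3 +23.0 kb: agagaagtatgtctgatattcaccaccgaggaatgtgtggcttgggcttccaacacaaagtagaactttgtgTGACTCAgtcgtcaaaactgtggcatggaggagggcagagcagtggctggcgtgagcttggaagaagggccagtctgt
Elf5 +34.3 kb: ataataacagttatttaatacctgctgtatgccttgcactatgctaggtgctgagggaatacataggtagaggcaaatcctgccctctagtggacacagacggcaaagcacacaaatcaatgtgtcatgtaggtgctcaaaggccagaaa
*Ets1* -26.5 kb held a pair of AP-1 matches, and the central 500 bp of *Ets1* +53.9 kb and *Ets2* +6.6 kb each held 1 match to ETS and 1 to AP-1, of which the stretches printed show the ETS match. *Elk3* +23.0 kb held a pair of AP-1 matches, of which 1 is shown, and neither *Etv1* +64.6 kb nor *Elf5* +34.3 kb held any.

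Of the 47 regions, 17 were called in all 8 libraries (36.2%), against 25.8% of all merged regions, and 14 were called in a single library (29.8%, against 28.6% of all regions). At an equal number of peaks 29 of the 47 regions held a peak in any library and 11 were called in all 8, where 32.8% of all regions with such a peak were called in all 8. By their centres, 31 regions lay in an intron, 4 in an exon and 12 outside the gene. The regions called in all 8 libraries had a median length of 1059 bp and those called in 1 library of 427 bp. *Ets1* had 13 regions and *Elk3* 7, and 2.25% and 8.36% of the windows of protein-coding genes held at least as many, in windows of 141.6 kb and 83.7 kb. The median window held 2 regions.

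The 10 genes differed in the number of libraries that had their promoter called. The promoter, taken as 500 bp upstream to 2000 bp downstream of a protein-coding start, was called in all 8 libraries for *Ets1*, *Ets2*, *Etv1*, *Etv4*, *Etv5* and *Elk3*, which is 6 of 10 genes, against 40.2% of protein-coding genes. It was called in 4 libraries for *Elf5*, in 2 for *Elf3* and in none for *Ehf* and *Fli1*, where 42.6% of protein-coding genes had a promoter called in no library. At an equal number of peaks the promoters of *Ets1*, *Ets2*, *Etv1* and *Etv5* were still called in all 8 libraries, that of *Etv4* in 6 and that of *Elk3* in 5, against 31.1% of protein-coding genes called in all 8. Hence none of the 3 epithelium-specific genes had a promoter called in every library.

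**Figure D1:**
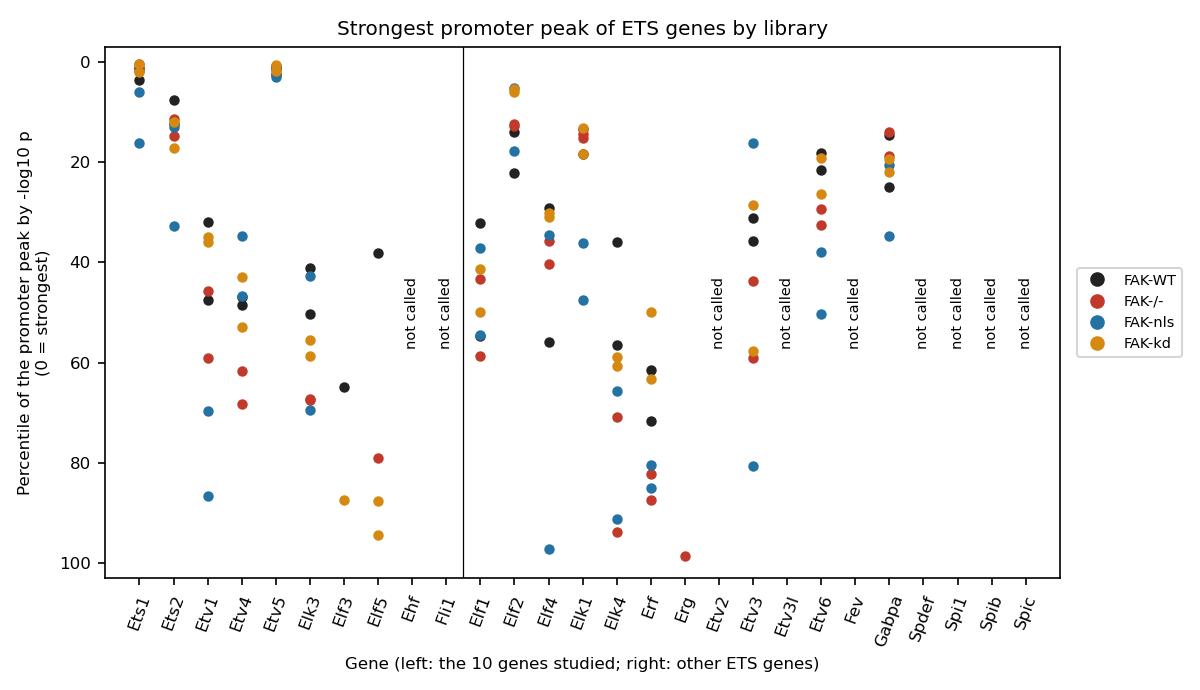
Percentile of the strongest promoter peak (vertical axis, 0 is the strongest peak of the library, by -log10 p) for each ETS gene, with 1 point per library coloured by line. Genes left of the vertical line are the 10 described and those to the right the other ETS genes. The *Etv5* points lie at 0.614 to 2.92, and genes marked as not called had no promoter peak in any library.

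*Etv5* (chr16:22381309-22439719, minus strand), a PEA3-group factor, had a promoter of high rank in every library. Its region at chr16:22439380-22440438 (-0.2 kb) had fold enrichments of 6.25 and 6.77 in FAK-WT, 6.88 and 6.08 in FAK-/-, 6.70 and 6.32 in FAK-nls and 6.06 and 7.09 in FAK-kd. The values of all lines overlapped, and the region ranked between 282 and 1278 in its library. An intronic region at chr16:22388935-22389770 (+50.4 kb) had fold enrichments of 8.42 and 6.18 in FAK-WT, 7.59 and 6.85 in FAK-/-, 7.26 and 4.37 in FAK-nls and 5.61 and 8.91 in FAK-kd. The replicates of FAK-kd and of FAK-nls lay far apart there, and by rank the FAK-nls libraries stood at percentiles 2.77 and 55.3. The region at +10.6 kb was called in all 8 libraries with fold enrichments from 5.09 to 7.88. A smaller region at +5.0 kb was called in 1 library of each line, and 1 at -7.0 kb in FAK-/- replicate 2 alone.

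*Ets1* (chr9:32636221-32757820, plus strand) had another promoter of high rank and, with 13, the most regions of the 10 genes. The gene record begins upstream of its protein-coding start, which lies at position 32696022 of chromosome 9, and the region over that start, chr9:32695545-32696340 (-0.1 kb), overlaps an untranslated exon. Its fold enrichments were 7.18 and 5.99 in FAK-WT, 7.37 and 6.25 in FAK-/-, 6.15 and 5.37 in FAK-nls and 7.09 and 6.50 in FAK-kd. It ranked between 135, in FAK-kd replicate 1, and 4038, in FAK-nls replicate 2. The intronic region at chr9:32730378-32731298 (+34.8 kb) had fold enrichments of 7.25 and 5.35 in FAK-WT, 6.93 and 5.32 in FAK-/-, 4.05 and 4.57 in FAK-nls and 6.83 and 5.88 in FAK-kd. Both FAK-nls values lay below those of all 6 other libraries. The remaining *Ets1* regions in all 8 libraries, at +13.7, +18.7 and +24.8 kb, had fold enrichments between 2.92 and 4.57. The regions at +13.7 kb and +15.3 kb, the latter called in 4 libraries, lie over the antisense gene *Gm27240*, and 2 regions far upstream, at -76.0 and -66.4 kb, lie over the lincRNA *Gm47680*, so that these cannot be assigned to *Ets1* alone.

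**Figure D2:**
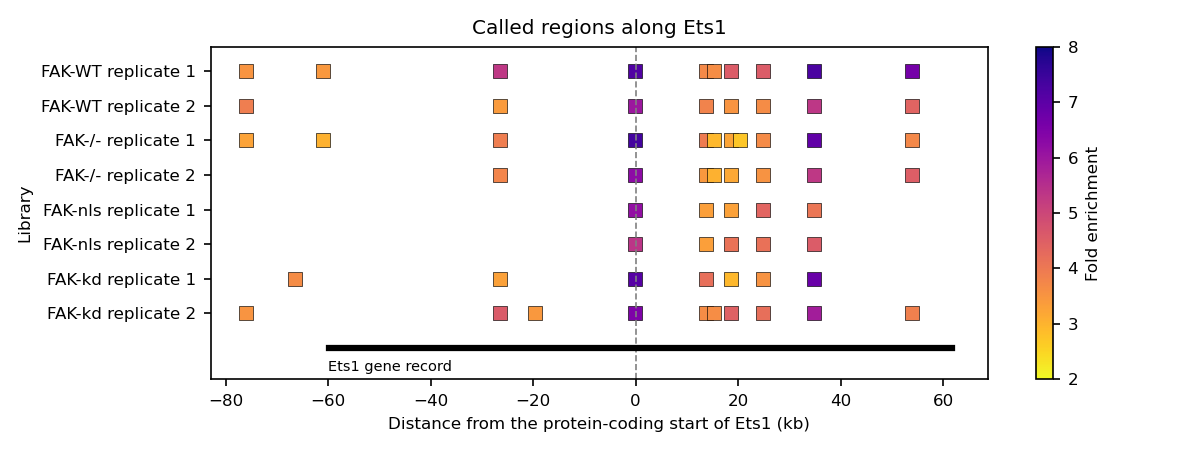
Called regions of *Ets1* by library, placed by the distance of their centre from the protein-coding start in kb (horizontal axis) and coloured by fold enrichment, with the gene record as a black bar. The region at the start is called in all 8 libraries, and the FAK-nls rows hold 5 called regions each. In the equal lists, which are not drawn, *Ets1* has 8 and 6 regions in FAK-WT and 5 and 7 in FAK-/-. There FAK-nls has 5 and 5, and FAK-kd 4 and 6.

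*Ets2* (chr16:95702075-95721051, plus strand), the closest relative of *Ets1*, had its promoter region at chr16:95701750-95703338 (+0.5 kb). Its fold enrichments were 5.44 and 5.10 in FAK-WT, 4.87 and 4.54 in FAK-/-, 4.25 and 5.24 in FAK-nls and 4.55 and 5.33 in FAK-kd. It ranked between 2973 and 7960. A region at chr16:95708251-95709062 (+6.6 kb), which reaches the promoter window of a later start, had fold enrichments of 4.63 and 3.39 in FAK-WT, 4.27 and 3.23 in FAK-/-, 4.51 and 5.86 in FAK-nls and 4.39 and 3.21 in FAK-kd. Here FAK-nls replicate 2 was the highest of all libraries and FAK-nls replicate 1 lay between the replicates of FAK-WT. By rank it stood at percentiles 44.1 and 14.8 in FAK-nls, and at 46.9 to 91.1 in the other 6 libraries.

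*Etv1* (chr12:38779380-38870484, plus strand) and *Etv4* (chr11:101769742-101785371, minus strand), the other PEA3-group genes, had promoters of middling rank. The *Etv1* promoter region at chr12:38778377-38780361 had fold enrichments of 4.16 and 3.81 in FAK-WT, 4.02 and 3.79 in FAK-/-, 3.50 and 4.00 in FAK-nls and 4.26 and 4.10 in FAK-kd. Both FAK-kd values lay above those of FAK-/- and FAK-nls, and FAK-WT overlapped each of the other lines. On the log2 quantile-normalized scale FAK-kd, at 2.16 and 1.91, overlapped FAK-/- (2.03 and 2.01) and FAK-nls (1.85 and 2.04). There FAK-WT, at 1.93 and 1.95, lay below both FAK-/- values and within the ranges of FAK-nls and FAK-kd. The *Etv4* promoter region at chr11:101784338-101785725 ranged from 3.22 in FAK-/- replicate 1 to 4.50 in FAK-kd replicate 2. At *Etv1* a distal intronic region was stronger than the promoter in every library. That region, chr12:38843646-38844410 (+64.6 kb), had fold enrichments of 8.64 and 7.19 in FAK-WT, 7.84 and 5.38 in FAK-/-, 6.20 and 5.15 in FAK-nls and 6.60 and 7.60 in FAK-kd, and ranked between 420 and 9483. The *Etv1* region at +14.4 kb was also called in all 8 libraries, with fold enrichments from 3.65 to 6.32.

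*Elk3* (chr10:93247414-93311135, minus strand) likewise had a stronger intronic region than promoter. The region at chr10:93287547-93288639 (+23.0 kb) had fold enrichments of 5.92 and 4.95 in FAK-WT, 5.89 and 4.77 in FAK-/-, 4.53 and 6.08 in FAK-nls and 5.17 and 5.63 in FAK-kd, and its percentiles ran from 5.11 to 25.8. The promoter region at +0.7 kb had fold enrichments from 3.02 to 4.04, with percentiles from 41.2 to 69.5. The region at +38.2 kb, called in all 8 libraries, ranged from 3.13 to 4.06. The 2 *Elk3* regions furthest downstream, at +49.0 and +63.2 kb, overlap *Cdk17* and were each called in 1 library.

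The epithelium-specific genes *Elf5* (chr2:103411688-103450989, plus strand), *Elf3* (chr1:135253575-135258568, minus strand) and *Ehf* (chr2:103263433-103303278, minus strand) had no region called in more than 4 libraries. Of all regions, 28.6%, 11.4%, 7.71% and 6.48% were called in 1, 2, 3 and 4 libraries. *Elf5* had 4 regions, *Elf3* 3 and *Ehf* 1, and 27.3%, 42.0% and 77.4% of the windows of protein-coding genes held at least as many. *Elf5*, a regulator of mammary alveolar differentiation, had its promoter region at chr2:103411335-103411832 called in FAK-WT replicate 1 (fold enrichment 5.22), FAK-/- replicate 1 (3.55) and both FAK-kd libraries (3.11 and 3.47), and in neither FAK-nls library. Its percentiles ran from 38.1 to 94.5, and at an equal number of peaks the call of FAK-WT replicate 1 alone was left. A region at +12.7 kb, over a later start, was called in FAK-/- replicate 1 alone, and a region at +28.5 kb in FAK-WT replicate 1 alone (4.29). *Elf3* had a promoter region at -0.6 kb called in FAK-WT replicate 1 and FAK-kd replicate 2, with fold enrichments of 4.05 and 3.44, and a region at +2.0 kb called in FAK-WT replicate 1 alone. Both lie over the antisense gene *Gm26642*. Its region at -9.7 kb, called in 4 libraries, lies over *Rnpep*. *Ehf* had a single region, at +31.6 kb, called in FAK-WT replicate 1 with a fold enrichment of 4.00. *Fli1* (chr9:32422204-32542861, minus strand), the gene of blood and endothelial cells, had 2 regions, called in FAK-WT replicate 1 (3.70) and in FAK-/- replicate 2 (3.04).

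**Figure D3:**
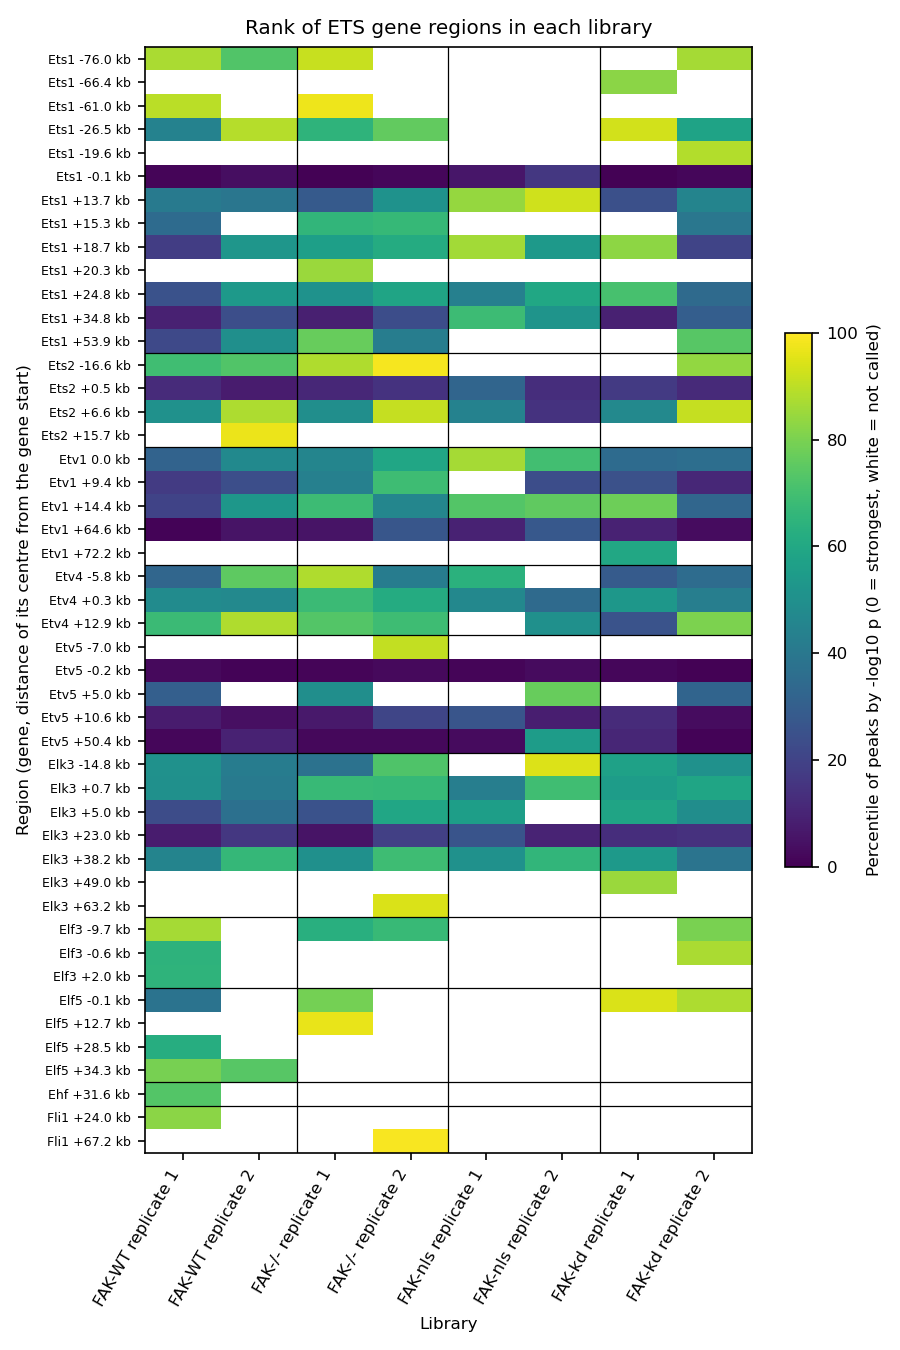
Percentile of each of the 47 regions (rows, grouped by gene) among the peaks of each library (columns) by -log10 p, where dark cells are the strongest peaks and white cells are not called. Dark rows at *Ets1* -0.1 kb and *Etv5* -0.2 kb run through all 8 libraries. The rows of *Elf3*, *Elf5*, *Ehf* and *Fli1* hold no call in FAK-nls, whose libraries called 24222 and 24763 of all 69399 regions. In the equal lists these genes hold a call only in FAK-WT replicate 1 (*Elf5*) and FAK-/- replicate 2 (*Elf3*).

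The number of called regions was compared between lines. FAK-WT libraries had 37 and 28 of the 47 regions called, FAK-/- libraries 33 and 30, FAK-nls libraries 19 and 21, and FAK-kd libraries 27 and 32. Of all 69399 regions, in the same order, 53459 and 38777, 42825 and 34953, 24222 and 24763, and 32681 and 45631 were called. Both FAK-nls libraries lay below all others, and the other lines overlapped, for the ETS gene regions as for all regions. The lines accounted for 76.7% of the variance in the counts of ETS gene regions. An exact one-sided permutation test over all 105 divisions into pairs did not separate this share from the spread between replicates (p = 0.114, where the smallest possible p is 0.00952). At an equal number of peaks the counts were 22 and 19, 18 and 23, 19 and 21, and 21 and 21, and the lines accounted for 5.0% of their variance (exact permutation p = 1.0). Per 10000 peaks of the library the counts were 6.89 to 8.51, and the share was 53.0% (exact permutation p = 0.381).

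**Figure D4:**
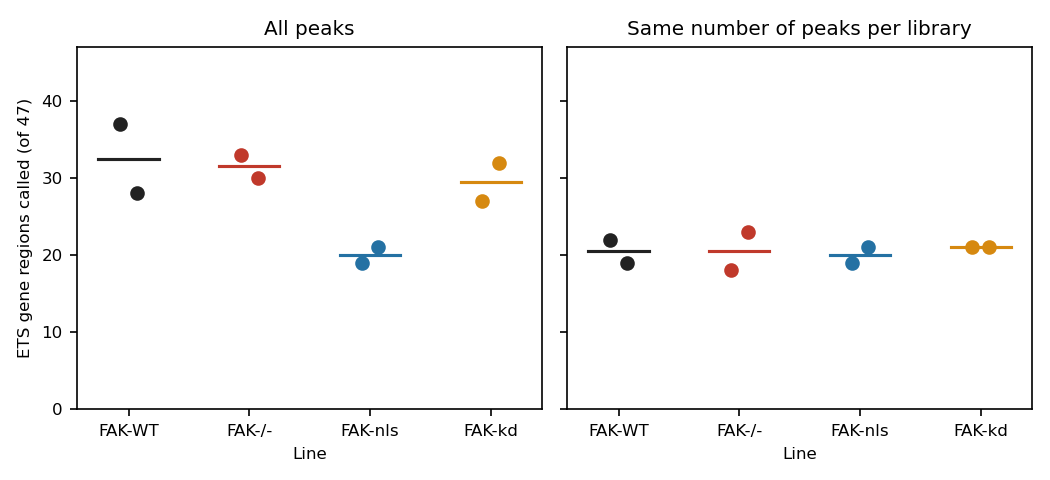
Number of ETS gene regions called (vertical axis) in each line (horizontal axis), with 1 point per library and a bar at the mean of 2, for all peaks (left) and the same number of peaks per library (right). FAK-nls lies at 19 and 21 in both panels, and the other lines fall to 18 to 23 in the right panel.

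FAK-WT was then compared with each other line, as in the study. Each construct is represented by 1 line with 2 libraries, so its effect cannot be told apart from a difference between lines. A region was called WT-only when both FAK-WT libraries and neither library of the other line had it, and reverse in the opposite case. Against FAK-/- there was 1 WT-only region of 47 (background 4.89% of all regions) and no reverse region (1.18%). Against FAK-kd there was also 1 WT-only region (4.33%) and no reverse region (0.83%). In both cases it was *Elf5* +34.3 kb, chr2:103445747-103446166, called in FAK-WT with fold enrichments of 3.82 and 3.77 and in none of the other 6 libraries. It ranked at percentiles 79.5 and 74.1, so that it was absent at an equal number of peaks.

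Against FAK-nls there were 5 WT-only regions of 47 (10.6%, background 15.3%) and no reverse region (0.248%). They were *Ets1* -76.0, -26.5 and +53.9 kb, *Ets2* -16.6 kb and *Elf5* +34.3 kb. *Ets1* -26.5 kb (chr9:32669304-32669834) was called in all 6 libraries of FAK-WT, FAK-/- and FAK-kd, with fold enrichments of 5.32, 3.40, 3.91, 3.76, 3.30 and 4.59, and 4.12% of all regions had that pattern. *Ets1* +53.9 kb (chr9:32749614-32750184) had fold enrichments of 6.63 and 4.39 in FAK-WT, 3.72 and 4.51 in FAK-/- and 3.87 in FAK-kd replicate 2, and was not called in the other 3 libraries. *Ets2* -16.6 kb and *Ets1* -76.0 kb were weak, with fold enrichments from 2.99 to 4.11. The 5 regions called in 7 libraries, at *Etv1* (+9.4 kb), *Etv4* (-5.8 and +12.9 kb) and *Elk3* (-14.8 and +5.0 kb), were each missed by a FAK-nls library, as were 80.7% of all regions called in 7 libraries. Where called, these 5 had fold enrichments from 3.19 to 6.68. The FAK-nls lists are the shortest, and the part of list length in these calls was not tested beyond the counts at equal number.

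At an equal number of peaks, with 29 regions left, FAK-WT had no WT-only region against FAK-/- (background 3.46%) and 1 each against FAK-nls (4.92%) and FAK-kd (3.11%), both being *Ets1* +53.9 kb. The reverse set held *Ets2* +6.6 kb against FAK-nls (4.29%) and nothing against FAK-/- (3.31%) or FAK-kd (2.65%). A single region of 29 is a share of 3.45%, which is below the background against FAK-nls in both directions and above it against FAK-kd.

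Where a region was called in all 8 libraries, its strength was compared by limma on log2 fold enrichment, which was fitted to 17917 regions in all and included 17 of the 47. A region lost in FAK-nls could not enter this fit. None of the 17 passed an adjusted p of 0.05 (limma, Benjamini-Hochberg) in any comparison. Over all regions limma called 1 against FAK-/- (0.00558%), 0 against FAK-nls (0%) and 3 against FAK-kd (0.0167%). At an unadjusted p under 0.05 there were 1145, 2746 and 980 regions (6.39%, 15.3% and 5.47%). Among the 17 the unadjusted count was 0, 2 and 0. The differences, as FAK-WT minus the other line in log2 fold enrichment, ran from -0.13 to 0.20 against FAK-/-, from -0.55 to 0.37 against FAK-nls and from -0.10 to 0.25 against FAK-kd. Their medians were 0.02, -0.01 and 0.01, and the medians of all regions were -0.005, -0.01 and -0.007. Standard errors lay between 0.14 and 0.22.

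The 2 regions with an unadjusted p under 0.05 were both in the FAK-nls comparison and in the *Ets* genes. *Ets2* +6.6 kb had a difference of -0.55 with an SE of 0.19 (unadjusted p = 0.0111, adjusted p = 0.192, limma), which is a lower value in FAK-WT, and over the alternatives run its adjusted p lay between 0.0626 and 0.510. *Ets1* +34.8 kb had a difference of 0.37 with an SE of 0.17 (unadjusted p = 0.0411, adjusted p = 0.303, limma), which is a higher value in FAK-WT, and over the alternatives its adjusted p lay between 0.240 and 0.723. Neither was a change past the threshold. For the *Ets1* promoter the 95% intervals of the difference ran from -0.46 to 0.20 against FAK-/-, from -0.34 to 0.32 against FAK-nls and from -0.40 to 0.26 against FAK-kd. For the *Etv5* promoter they ran from -0.39 to 0.24, from -0.52 to 0.11 and from -0.34 to 0.29.

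**Figure D5:**
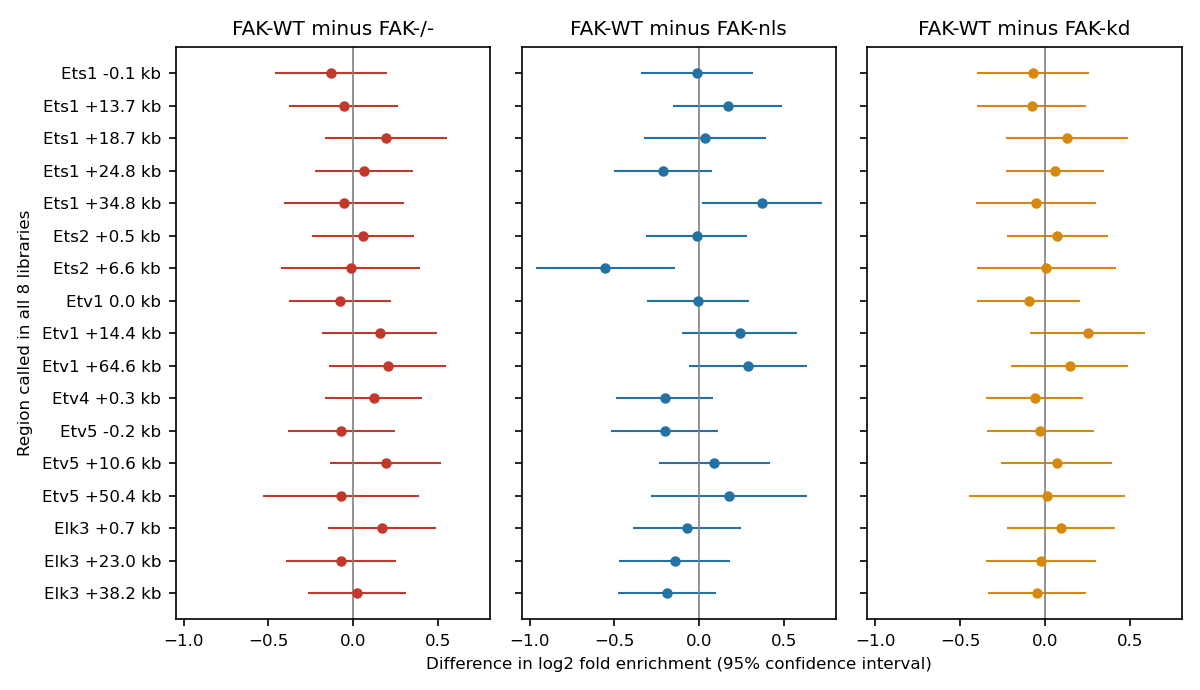
Difference in log2 fold enrichment between FAK-WT and each other line (horizontal axis) for the 17 regions called in all 8 libraries, with 95% confidence intervals from limma. Of the intervals, 2 exclude 0, at *Ets2* +6.6 kb and *Ets1* +34.8 kb against FAK-nls, and neither region passes the adjusted threshold.

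Motif content was compared with that of all regions. In the central 500 bp, an ETS match (AGGAAGT or CGGAAGT, both strands) stood in 9 of 47 regions (19.1%, 95% Wilson interval 10.4% to 32.5%), against 17.0% of all regions. An AP-1 match (TGACTCA or TGAGTCA) stood in 19 of 47 (40.4%, 27.6% to 54.7%), against 35.3% of all regions. No region held the CRE sequence TGACGTCA, against 1.07% of all regions. These intervals cover counting of regions only. Among the 17 regions in all 8 libraries, 4 held an ETS match (23.5%, against 19.6% of all regions called in all 8) and 6 an AP-1 match (35.3%, against 33.3%). Among the 12 promoter regions, *Ets2* +0.5 kb and *Etv1* 0.0 kb held an ETS match, *Etv5* -0.2 kb, *Elf3* -0.6 kb and *Elf5* -0.1 kb an AP-1 match, and *Ets2* +6.6 kb and *Elf5* +12.7 kb both. The share among promoter regions of all genes was not computed for the central 500 bp, so no excess or lack can be read from these matches.

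The other 17 ETS genes of the mouse also included both called and uncalled promoters. The promoter was called in all 8 libraries for 9 of them, against 40.2% of protein-coding genes, and for 6 in the equal lists, against 31.1%. Those called in all 8 included *Gabpa*, a broadly used ETS activator, and *Erf*, a repressor regulated by ERK. The promoter of *Erg* was called in 1 library. No library had a promoter call for *Etv2*, *Etv3l*, *Fev*, *Spdef*, *Spi1*, *Spib* and *Spic*, where *Spi1* encodes the myeloid factor PU.1 and *Etv3l* is annotated as a pseudogene. The windows of the 17 genes held 69 regions, with calls in all 8 libraries at 25 (background 25.8%). Of the 69, WT-only regions numbered 3 against FAK-/- (background 4.89%), 8 against FAK-nls (15.3%) and 3 against FAK-kd (4.33%), and the single reverse region was at *Erg* against FAK-kd (0.83%). Against FAK-/- and FAK-kd the WT-only regions were *Elf1* +81.8 kb, *Elf4* -4.6 kb and *Erg* -19.1 kb, each called in FAK-WT alone. Against FAK-nls they were these 3, a further 2 at *Erg*, 2 at *Spi1* and 1 at *Etv6*. None of the 25 regions passed the limma threshold. At an unadjusted p under 0.05 there were 2, 5 and 0 of the 25, against 6.39%, 15.3% and 5.47% of all regions fitted.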

How the data were processed

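ATAC-seq peak lists of 8 libraries took their line from the GEO labels. The authors aligned reads to mm10 with bcbio and called broad peaks per library with MACS2 (version 2.1.1 in the submitters' processing notes). The deposited −log10 p-value, −log10 q-value and fold enrichment ratio are the authors' values relative to the background around each peak in that library. The deposited pileup signal is the height of reads, set to an extension of 200 bp in the methods, without that background. Peak length is in bp and differed between libraries, and fold enrichment was not adjusted for it. No read counts were used, so no count test was run, and list length carries over into calls. No pair of libraries held identical peaks (0%). Peaks overlapping by 1 bp were merged, annotated with GENCODE vM21 and ranked by −log10 p. limma 3.58.1 (R 4.3.3) was fitted to log2 quantile-normalized fold enrichment, and tested on simulated data. Alternatives changed the peak number, threshold, width, coverage, window, measure, scaling, block and libraries. The members, the other ETS genes, the markers and the tests were chosen with earlier results of these data known. Named regions were all promoter regions, WT-only and reverse regions, and the 3 per gene of best worst rank. Further regions, the regions called in 7 libraries and the *Ptk2* check were added after their values were seen.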

Additional observations from a re-analysis of the deposited data

How the results depend on the processing

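Limits are the 2 libraries per line, peak lists that hold no read counts, and lists of unequal length. The count of ETS gene regions per library stayed short of the threshold under each alternative run, with shares of variance between lines from 5.0% to 84.3%, and 63.0% to 92.6% without 1 library (exact permutation p from 0.0571 to 1.0). WT-only regions against FAK-/-, 1 in the report, became 0 of 29 at an equal number of peaks (3.46% of all regions) and 0 of 34 at a −log10 q of 3 (5.77%). They became 3 of 47 with 50% coverage (6.12%) and 3 of 64 with 50 kb upstream (4.89%). Against FAK-nls, 5 in the report, they became 1 of 29 at an equal number (4.92% of all regions), 3 of 38 in the gene body alone and 9 of 64 with 50 kb upstream (15.3% of all regions for both). Against FAK-kd, 1 in the report, they became 4 of 47 with 50% coverage (5.57%) and 4 of 64 with 50 kb upstream (4.33%). Reverse regions against FAK-nls, 0 in the report, became 1 of 29 at an equal number (4.29%) and 1 of 47 with 50% coverage (0.197%). Without 1 library WT-only counts ran from 1 to 6, 6 to 14 and 1 to 6 against FAK-/-, FAK-nls and FAK-kd, each highest without FAK-WT replicate 2, where the shares of all regions were 20.4%, 37.6% and 18.1%. They were also 2 against FAK-/- without FAK-WT or FAK-/- replicate 1 (7.92% and 10.3% of all regions), 8 against FAK-nls without FAK-nls replicate 2 (20.3%), and 2 and 4 against FAK-kd without FAK-WT replicate 1 and FAK-kd replicate 2 (7.38% and 11.8%). Reverse counts ran from 0 to 3 against FAK-/- (3 of 47 without FAK-/- replicate 1, 3.56% of all regions) and FAK-kd (3 of 47 without FAK-kd replicate 2, 2.85%), and stayed 0 against FAK-nls. Against FAK-/- they were also 2 without FAK-/- replicate 2 (6.96%) and 2 without FAK-WT replicate 1 (4.68%). Against FAK-kd they were also 1 without FAK-kd replicate 1 (8.09%) and 1 without FAK-WT replicate 1 (3.70%). The cause was not tested, beyond the fewer libraries that have to share a call.

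Regions called in all 8 libraries, 17 in the report, became 11 of 29 at an equal number (32.8% of all regions), 7 of 34 at a −log10 q of 3 (20.04%) and 8 of 47 with 50% coverage (10.5%), settings chosen after seeing the data. The AP-1 share became 55.3% over whole regions, against 41.7% of all regions, a wider gap than in the central 500 bp (40.4% against 35.3%), and the cause was not tested. At an equal number of peaks the ETS share was 8 of 29 regions (27.6%, against 17.99% of all regions). No ETS gene region passed the limma threshold under any of the alternatives. Over all regions the limma calls became 5, 0, 34 and 4 against FAK-/- with median centring, no scaling, pileup and −log10 p, 198 and 33 against FAK-nls with pileup and −log10 p, and 0, 14 and 0 against FAK-kd with no scaling, pileup and the 2 lines alone. Without 1 library they ran from 0 to 2, 0 to 2 and 0 to 5, each of the first and last highest without FAK-nls replicate 1 and the second without FAK-nls replicate 2.

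After quantile normalization, the deviations of samples with the same replicate number had correlations from -0.20 (FAK-WT with FAK-kd) to 0.06 between lines. Library-wide shifts are removed there and each line has 2 libraries, so this check cannot exclude a pairing or a batch. The main results treat the samples as unpaired. With a replicate block the share of variance was 76.7% (exact permutation p = 0.25), limma called 1, 0 and 2 regions, and 0 ETS gene regions.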
